A study of Mus musculus with 6 samples.

Results

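The hippocampal excitatory neuron markers described here are 10 genes fixed by name: Fibcd1, Mpped1, Wfs1, Zbtb20, Prox1, Man1a, C1ql2, C1ql3, Spock1 and Dsp. All 10 were among the 20040 gene entries of the deposited table. Expression was measured by mRNA sequencing in primary neuron cultures from embryonic day 18 mice of C57BL/6 background. There were 3 libraries labelled wild type (WT) and 3 labelled KDM6B KO (KO), with no further treatment. The labels name the cortex as the tissue taken and not the hippocampus. They do not say which part of Kdm6b was deleted, in which cells, or for how many days the neurons grew. Nor do they say whether replicates were separate cultures: the spread that each p-value is set against may be technical.

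The hippocampus is a folded strip at the medial edge of the cortex. Its pyramidal neurons form the fields CA1 to CA3, and its granule neurons fill the dentate gyrus and send mossy fibre axons to CA3. Genes that pick out these cells in adult tissue are rarely confined to them: several of the 10 are also used by upper-layer cortical neurons, interneurons or glia, so a level in a culture does not by itself count hippocampal cells. KDM6B removes methyl groups from a lysine of histone H3, a mark of repressed developmental genes, and the comparison asks which transcripts differ in neurons labelled as its knockout.

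Values are in TPM, a measure of transcript share corrected for gene length and adding up to 1000000 per library. The whole counts behind them added up to between 19761714 and 23503660 per library. Kdm6b held 30.9, 30.3 and 30.7 TPM in the WT libraries against 11.2, 11.1 and 12.0 TPM in the KO libraries, or 37.3% of WT (limma adjusted p = 1.1e-05). Y-linked transcripts separated the groups: Eif2s3y, Ddx3y, Kdm5d and Uty summed to between 91.0 and 93.9 TPM in WT and to between 0.149 and 0.754 TPM in KO, while Xist ran from 70.8 to 77.7 TPM in WT and from 224 to 241 TPM in KO. Effects of the sex mix and of the genotype therefore cannot be told apart in any comparison given here. No marker gene of the 10 lies on X or Y.

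The members lay on 7 autosomes (GRCm38). Mpped1 spans 83779467 to 83858494 on chromosome 15, Wfs1 36966104 to 36989205 on chromosome 5, and Man1a 53904785 to 54076609 on chromosome 10. Prox1 spans 190118035 to 190170714 and C1ql2 120340582 to 120343174, both on chromosome 1. C1ql3 spans 13003457 to 13011806 and Fibcd1 31813290 to 31846005, both on chromosome 2. Spock1 spans 57421195 to 57908332 and Dsp 38151294 to 38198577, both on chromosome 13. Zbtb20 spans 42875881 to 43642602 on chromosome 16. Its TPM rests on a length of 3329 nt, where GENCODE annotates 30730 nt of exons, so its level covers a small part of the annotated gene. Exons of Zbtb20, Prox1, Man1a, C1ql3 and Dsp overlap annotated transcripts on the opposite strand, and the strand setting of the counting is not given in the sources used here.

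Of the 10 genes, 3 fell in KO, none rose and 7 did not pass the test (limma, Benjamini-Hochberg adjusted p below 0.05 over all 14983 genes tested). Over all genes tested, 6.74% were called lower and 4.15% higher. The 3 were Fibcd1 at 64.9% of the WT level, C1ql3 at 72.0% and Spock1 at 87.99%. All 10 passed the filter on low values, which asked for 0.5 TPM on average. The KO libraries lay wholly below the WT libraries for 5 members and wholly above for 1, where 19.2% and 12.5% of all genes tested did so (31.7% in either direction). The median log2 fold change of the 10 was -0.18, and that of all genes tested was -0.02. The balance of all calls depended on scaling, with 622 higher and 1010 lower as deposited and 867 higher and 767 lower after median centring. The 3 lower calls among the members were present under both scalings. Without KO replicate 1 there were 5 lower calls among the 10, and without WT replicate 1 there were 2. When the recovered counts were tested with limma voom, 6 members were called lower and 2 higher. The shares of all genes given above are those of the main fit and do not hold for these alternatives. Voom called more genes higher over all genes tested as well. In such bulk cultures, fewer cells of a type and less RNA per cell cannot be told apart.

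**Figure D1:**
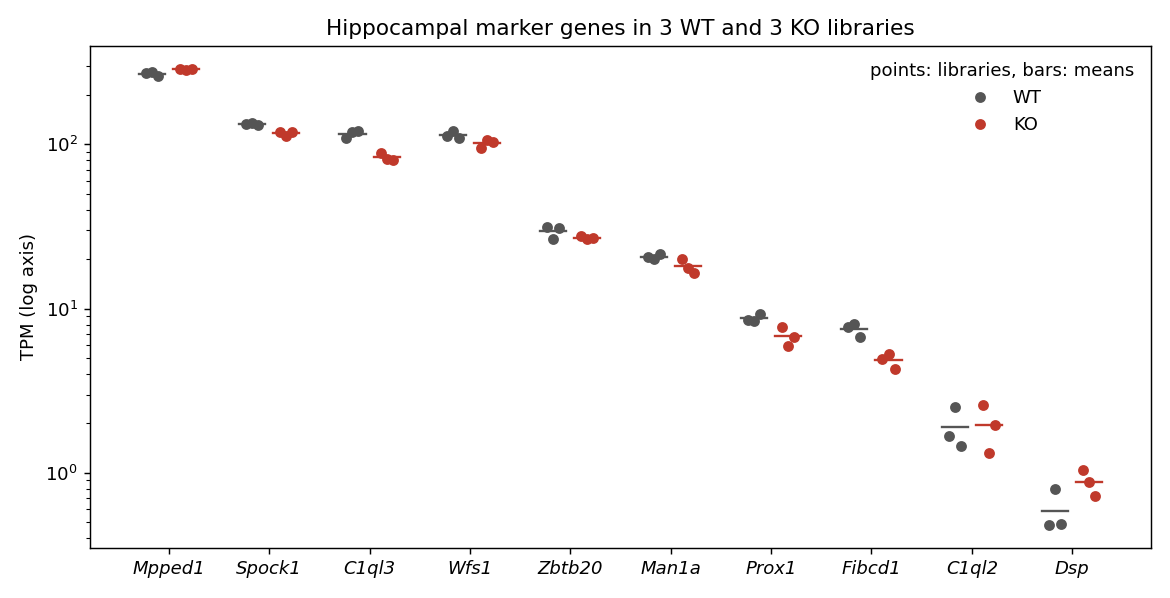
TPM on a log axis for the 10 marker genes, ordered by WT mean, with 1 point per library and a bar at each group mean of 3. The KO points of Spock1, C1ql3 and Fibcd1 lie below all WT points, and levels run from Mpped1 near 270 TPM in WT to Dsp near 0.589 TPM.

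The promoters of Fibcd1 and Spock1 are shown because both genes fell and because, for both, the start site in RefSeq is the first base of the GENCODE gene. Each line is the 250 bases before the RefSeq start (GRCm38.p6), on the minus strand, written 5′ to 3′ in the direction of the gene. Capitals mark CG dinucleotides.
Fibcd1, chr2:31846006-31846255: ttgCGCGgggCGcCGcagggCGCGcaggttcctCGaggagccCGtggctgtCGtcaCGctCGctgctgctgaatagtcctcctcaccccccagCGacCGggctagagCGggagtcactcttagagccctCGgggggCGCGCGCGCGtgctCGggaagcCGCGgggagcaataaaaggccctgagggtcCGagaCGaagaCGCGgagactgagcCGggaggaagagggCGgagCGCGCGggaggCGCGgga
Spock1, chr13:57908333-57908582: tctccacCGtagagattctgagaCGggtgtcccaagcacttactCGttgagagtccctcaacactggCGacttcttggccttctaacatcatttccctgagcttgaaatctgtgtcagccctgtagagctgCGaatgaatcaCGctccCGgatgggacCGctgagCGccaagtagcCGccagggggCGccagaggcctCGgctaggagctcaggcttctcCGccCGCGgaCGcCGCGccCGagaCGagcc

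Counted over these bases and the 50 that follow the start, Fibcd1 held 46 CG dinucleotides and Spock1 29, where the median over 32851 mouse windows of the same length was 7. Fewer CG were found in 98.4% of all windows than in that of Fibcd1, and in 87.1% than in that of Spock1. Of the other members, Dsp and C1ql2 also have the RefSeq start at the GENCODE gene start, and their windows held 27 and 23 CG. The RefSeq starts of Wfs1, Man1a and Zbtb20 lie 223, 872 and 371403 bases inside the annotated gene, with 30, 38 and 3 CG in their windows. Mpped1 had windows of 59 and 3 CG, and Prox1 of 25 and 14. The RefSeq start of C1ql3 lies 942 bases inside the GENCODE gene, and its window, with 25 CG, is not shown. The E-box CAGATG, searched on both strands, was found in neither the Fibcd1 nor the Spock1 window, and once each in a window of Wfs1 and of Prox1. The E-box CAGCTG, which reads the same on both strands, was in no window of the members. These motifs were in 17.2% and 16.3% of all windows, and no binding or histone data were used here.

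Of the members associated with the CA1 field, Fibcd1, Mpped1 and Wfs1, Fibcd1 fell and the others did not pass. Fibcd1 encodes a membrane receptor with a fibrinogen-like domain that binds acetylated sugars. It held 7.70, 8.07 and 6.68 TPM in WT replicates 1, 2 and 3 and 4.96, 5.32 and 4.30 TPM in KO replicates 1, 2 and 3. All KO libraries were below all WT libraries, and the gap between the groups, from 6.68 to 5.32 TPM, was wider than the SD of either group, 0.724 and 0.520 TPM. On the log2 scale KO differed from WT by -0.58 ± 0.11 (SE, limma adjusted p = 0.0145), on 764 counts over the WT libraries and 504 over KO. The call was lost without WT replicate 1 (adjusted p = 0.0586) and without WT replicate 2 (adjusted p = 0.0529), at log2 fold changes of -0.55 and -0.52.

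Mpped1 encodes a metallophosphoesterase that is abundant in CA1 and in upper cortical layers. It was the highest of the 10, with 273, 275 and 262 TPM in WT against 286, 285 and 289 TPM in KO. The KO libraries were all above the WT libraries, at 1.06-fold. The log2 fold change of 0.09 ± 0.03 (SE) missed the threshold (limma adjusted p = 0.0685). It passed after median centring (adjusted p = 0.0326), after quantile normalization (0.0197) and when recovered counts were fitted with limma voom (0.00908), at a log2 fold change of up to 0.11.

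Wfs1 encodes wolframin, a membrane protein of the endoplasmic reticulum that takes part in calcium handling and the stress response of that organelle. It is a CA1 marker that other forebrain neurons express as well. Wfs1 held 113, 121 and 109 TPM in WT against 94.7, 106 and 104 TPM in KO. The groups did not overlap, but the lowest WT and the highest KO library were closer to each other than the SD within either group, 5.76 and 5.99 TPM. Its log2 fold change of -0.17 ± 0.05 (SE) did not pass (limma adjusted p = 0.0707, or 0.00537 with voom). The 95% interval ran from 0.816 to 0.963 of the WT level, before any adjustment for the number of genes.

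Zbtb20 encodes a zinc finger repressor that is needed in hippocampal pyramidal neurons to take on CA1 identity, and that glia express too. Its values were 31.6, 26.7 and 30.8 TPM in WT against 27.7, 26.7 and 26.8 TPM in KO. WT replicate 2 lay at the level of the KO libraries, and the groups overlapped. On the log2 scale KO differed from WT by -0.13 ± 0.06 (SE, limma adjusted p = 0.258). The 95% interval, from 0.825 to 1.01 of the WT level, holds both no difference and a fall of the size seen for Spock1. Without WT replicate 2 the gene was called lower (log2 fold change -0.20, adjusted p = 0.0446).

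**Figure D2:**
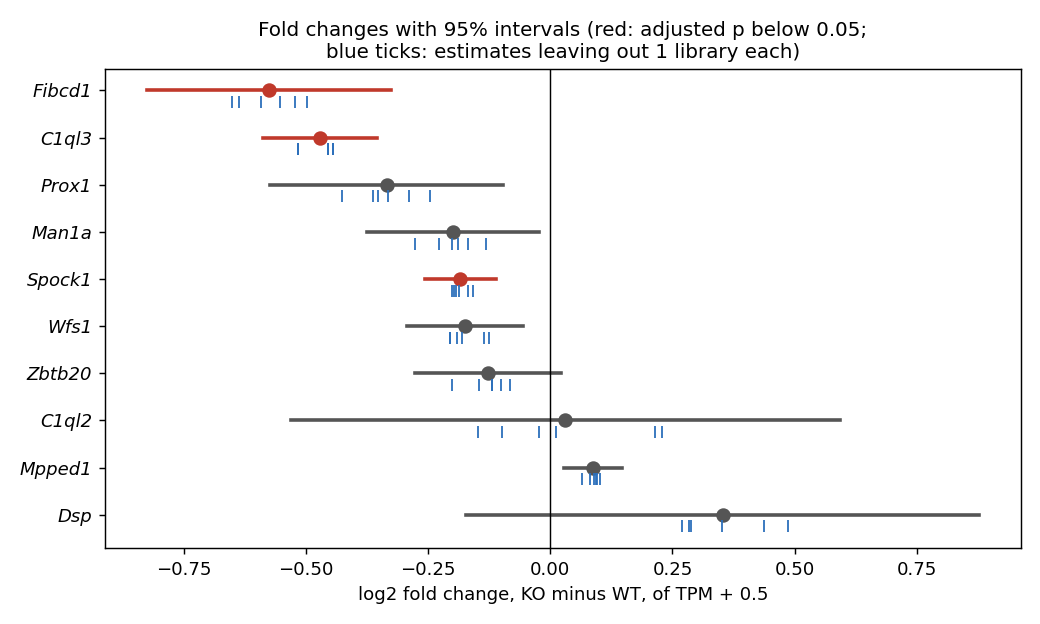
Log2 fold changes of KO against WT on the scale of TPM + 0.5, with 95% intervals not adjusted for the number of genes and, as blue ticks, the estimates with 1 library left out. Fibcd1, C1ql3 and Spock1, in red, passed, and the intervals of C1ql2 and Dsp, at 21 to 72 counts per library, are the widest.

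Of the members tied to dentate granule cells, Prox1, Dsp and C1ql2 did not pass the test, while C1ql3, described below, was called lower. Prox1 encodes a homeobox factor required for granule cell identity, and caudally derived interneurons and lymphatic endothelium use it as well. It held 8.47, 8.36 and 9.31 TPM in WT against 7.79, 5.96 and 6.76 TPM in KO. All KO libraries were below all WT libraries, with KO replicate 1 closest to WT. The log2 fold change of -0.33 ± 0.10 (SE) did not pass (limma adjusted p = 0.0801), on 185 to 289 counts per library. It passed with voom (adjusted p = 0.00670) and without KO replicate 1 (0.0459), where it was -0.43.

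Dsp encodes desmoplakin, which ties desmosomes to intermediate filaments in epithelia and marks granule cells in the adult dentate gyrus. It was the lowest of the 10, with 0.482, 0.800 and 0.486 TPM in WT against 1.05, 0.883 and 0.725 TPM in KO. WT replicate 2 lay above KO replicate 3, so the groups overlapped. The log2 fold change on the scale of TPM + 0.5 was 0.35 ± 0.23 (SE, limma adjusted p = 0.381), and the KO mean was 150.2% of the WT mean. Only 33 to 72 counts per library lay behind these values. With voom the gene was called higher (log2 fold change 0.64, adjusted p = 0.0275), so the call depended on the test.

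C1ql2 and C1ql3 encode secreted C1q-like proteins that granule cells release from mossy fibre endings, where they recruit kainate receptors on the far side of the synapse. C1ql3 is also made by other excitatory neurons of the forebrain. It held 109, 119 and 120 TPM in WT against 88.7, 81.6 and 80.2 TPM in KO, and all KO libraries were below all WT libraries. The fall was -0.47 ± 0.05 on the log2 scale (SE, limma adjusted p = 0.00145), on 7905 counts over WT and 5729 over KO. It passed in each of the 17 alternative analyses, at log2 fold changes between -0.52 and -0.44. C1ql3 was the member with the smallest p.

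C1ql2 was much scarcer, with 1.68, 2.53 and 1.47 TPM in WT against 2.58, 1.33 and 1.97 TPM in KO. High and low libraries occurred in both groups. On the log2 scale KO differed from WT by 0.03 ± 0.24 (SE, limma adjusted p = 0.956), on 21 to 37 counts per library. It turned negative without KO replicate 1, WT replicate 1 or WT replicate 3, to -0.15 at most. The 95% interval, from 0.692 to 1.51 of the WT level, includes the ratio found for C1ql3, so a fall of that size is not excluded. The ratio of C1ql3 to C1ql2 lay between 46.9 and 82.0 in WT and between 34.4 and 61.4 in KO, and these ranges overlapped. Whether the paired genes responded differently was not tested.

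The remaining pair encode proteins of the secretory route and the matrix. Spock1 encodes testican-1, a secreted proteoglycan that is abundant in hippocampal pyramidal neurons. It held 132, 136 and 131 TPM in WT against 118, 113 and 120 TPM in KO. The groups were apart, and each was tight, with an SD of 2.62 TPM in WT and 3.75 TPM in KO. The fall of -0.18 ± 0.03 on the log2 scale (SE, limma adjusted p = 0.00968) rested on 16893 to 19094 counts per group. It was the smallest of the 3 falls and passed in each of the 17 alternatives, with adjusted p up to 0.0490.

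Man1a encodes a mannosidase of the Golgi apparatus that trims N-linked glycans. It held 20.7, 19.9 and 21.7 TPM in WT against 20.1, 17.7 and 16.4 TPM in KO. KO replicate 1 lay inside the WT range, and the other KO libraries lay below it. On the log2 scale KO differed from WT by -0.20 ± 0.08 (SE, limma adjusted p = 0.144). It was close in size to that of Spock1, but the SD of 1.89 TPM within KO was 10.5% of the mean. The call passed with voom (adjusted p = 0.0373) and without KO replicate 1 (log2 fold change -0.28, adjusted p = 0.0480).

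**Figure D3:**
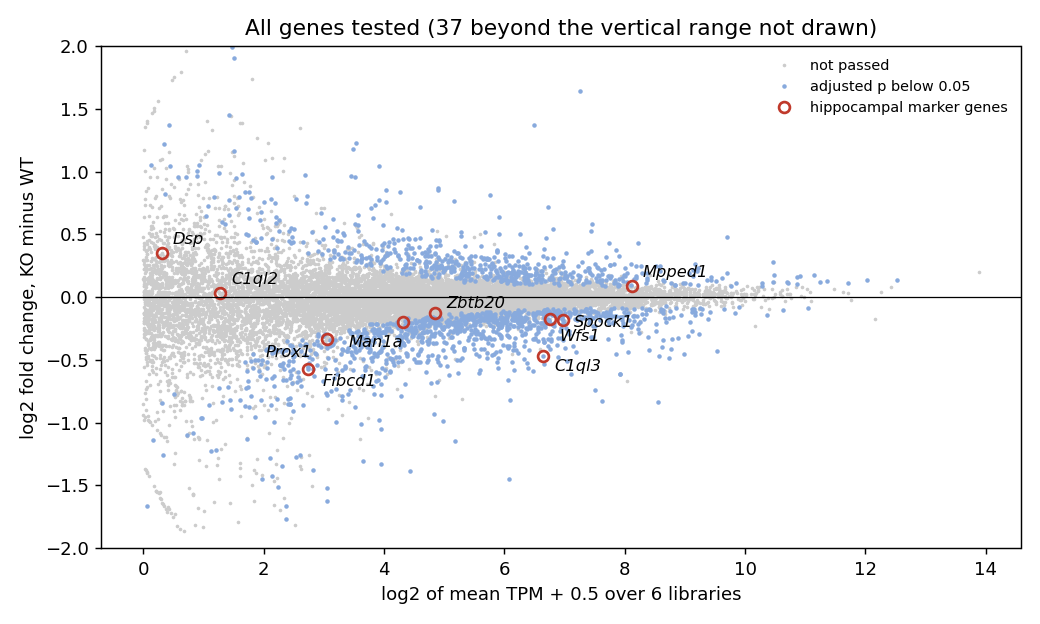
Log2 fold change of KO against WT plotted over the log2 mean level for the 14983 genes tested (37 lie beyond the axis and are not drawn), with the 10 marker genes ringed and named. Genes that passed are blue: Spock1 did at -0.18, while Prox1, at -0.33 and a lower level, did not.

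Compared per length as TPM, the order of the members' levels was nearly the same in both groups. In WT it ran Mpped1, Spock1, C1ql3, Wfs1, Zbtb20, Man1a, Prox1, Fibcd1, C1ql2 and Dsp. The ranges over WT libraries of C1ql3, 109 to 120 TPM, and Wfs1, 109 to 121 TPM, overlapped, and all other neighbours were apart. In KO, Wfs1 and C1ql3 changed places and no longer overlapped, with at least 94.7 TPM for Wfs1 and at most 88.7 TPM for C1ql3. By mean level, Mpped1 stood above 95.7% of the genes tested, Spock1 above 88.5% and Dsp above 3.47%. Counting error alone gives a coefficient of variation of 1.26% for Mpped1 and 19.2% for C1ql2 in WT, and the values found were 2.71% and 29.8%. In KO the values found lay on either side of counting error. They were 13.4% against 7.01% for Prox1, but 0.765% against 1.22% for Mpped1 and 2.13% against 3.92% for Zbtb20. Some SDs given below are also under counting error: Neurod1 in KO (1.78% against 12.8%), Zeb2 in KO (0.172% against 1.79%) and Adgrb3 in WT (0.0609% against 1.53%). An SD under counting error understates the spread to be expected.

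Other markers of the same fields were read from lists of names, which were chosen with earlier results of these data known. The shares to set beside the counts of this list and those that follow are 6.74% lower and 4.15% higher over all genes tested. Of 18 further genes of the CA fields and subiculum, 5 fell, none rose and 13 did not pass, with a median log2 fold change of -0.11. Cpne4, a calcium-dependent membrane-binding protein of the copine family, went from 101.0 ± 3.18 TPM in WT to 80.0 ± 3.41 TPM in KO (SD, n = 3 each), a log2 difference of -0.33 ± 0.04 (SE, limma adjusted p = 0.00203). Socs2, an inhibitor of cytokine signalling, fell from 46.9 ± 0.495 to 38.9 ± 0.791 TPM (adjusted p = 0.00235). Ccn3, a secreted matrix protein listed as Nov, fell from 402 ± 15.6 to 334 ± 10.8 TPM (adjusted p = 0.0031). The count was 3 without KO replicate 1, KO replicate 2, KO replicate 3 or WT replicate 2, and 8 with voom. The shares above are those of the main fit and do not hold for these alternatives. The other genes of the list that fell, named after their values were seen, were Pcp4, a calmodulin-binding peptide that marks CA2 (300.4 ± 12.9 to 270.1 ± 1.82 TPM, adjusted p = 0.0224), and Pou3f1, a POU factor of CA1 and upper cortical layers (21.9 ± 1.85 to 18.3 ± 0.358 TPM, adjusted p = 0.0495). Pcp4 lost its call in 7 of the 17 alternatives (adjusted p to 0.0896), among them leaving out KO replicate 1, KO replicate 2, KO replicate 3 or WT replicate 2. Pou3f1 lost it in 11 (to 0.139), among them leaving out any library but WT replicate 3.

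Of 13 further dentate granule cell markers, 12 were tested, of which 4 fell, none rose and 8 did not pass (median log2 fold change -0.14). Neurod1, a bHLH factor needed for granule cells to form, went from 17.4 ± 0.513 TPM in WT to 6.76 ± 0.120 TPM in KO, a log2 difference of -1.30 ± 0.06 (SE, limma adjusted p = 3.41e-05). The transcription factor Rfx3 fell from 120 ± 5.71 to 82.4 ± 0.677 TPM (adjusted p = 0.00024). The calcium buffer Calb1, which interneurons and upper-layer neurons also make, fell from 122 ± 2.06 to 95.8 ± 7.63 TPM (adjusted p = 0.00645), and Glis3, a zinc finger factor named after its values were seen, from 6.87 ± 0.453 to 5.20 ± 0.455 TPM (adjusted p = 0.0445). Glis3 lost its call in 10 of the 17 alternatives (adjusted p to 0.141), among them leaving out any library but KO replicate 3. The 13th gene, Lct, did not pass the filter on low values, at 3 to 8 counts per library.

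**Figure D4:**
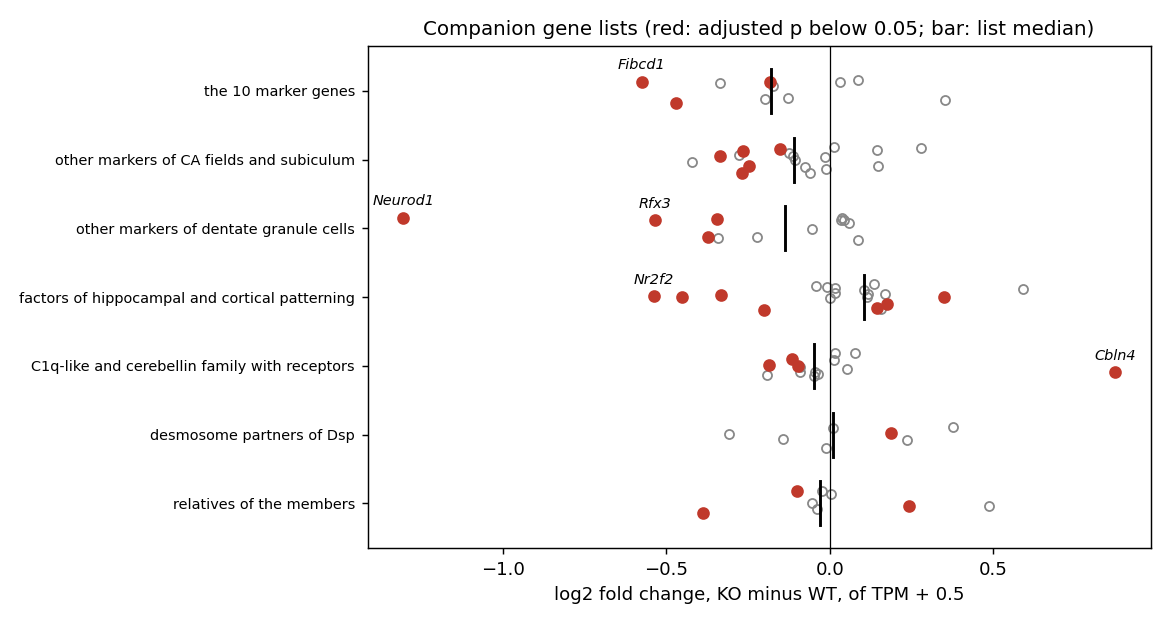
Log2 fold changes of KO against WT for the tested genes of the 10 markers and of 6 companion lists, 1 point per gene, red where the adjusted p was below 0.05, with a bar at each list's median. Neurod1 at -1.30 and Cbln4 at 0.87 are the outermost points, and the other points that passed lie within 0.58 of 0.

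Factors that pattern the hippocampus and cortex went both ways. Of 23, 19 were tested, 3 rose, 4 fell and 12 did not pass, and the median log2 fold change was 0.11. Neurod2, a bHLH factor of excitatory neurons, fell from 65.0 ± 1.86 to 47.4 ± 2.67 TPM (SD, n = 3 each; limma adjusted p = 0.00131). Zeb2, a zinc finger repressor, fell from 58.2 ± 2.59 to 46.1 ± 0.0792 TPM (adjusted p = 0.00189). Nr2f2, a nuclear receptor of the caudal and medial forebrain, fell from 20.7 ± 1.25 to 14.1 ± 0.949 TPM (adjusted p = 0.00261). Named after their values were seen, Emx2 and Lhx2, which are required for the hippocampus to form, rose from 14.6 ± 0.148 to 18.8 ± 0.843 TPM (adjusted p = 0.00513) and from 88.8 ± 2.19 to 98.2 ± 2.58 TPM (adjusted p = 0.0257). Chosen in the same way, the bHLH factor Tcf4 rose from 237.8 ± 4.15 to 268.7 ± 5.81 TPM (adjusted p = 0.00491) and the nuclear receptor Nr2f1 fell from 107.1 ± 0.800 to 93.1 ± 2.66 TPM (adjusted p = 0.00473). Lhx2 lost its call in 7 of the 17 alternatives (adjusted p to 0.0867), among them leaving out any library but KO replicate 3, while Emx2, Tcf4 and Nr2f1 kept theirs in all 17. With voom 7 factors were called higher, and more genes were called higher over all genes tested as well. Lef1 and the cortical hem genes Wnt3a, Wnt8b and Lmx1a did not pass the filter on low values.

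The relatives and receptors of C1ql2 and C1ql3 numbered 15, of which 14 were tested, 1 rose, 3 fell and 10 did not pass. Cbln4, a cerebellin that bridges neurexins to receptors across the synapse, went from 20.7 ± 0.981 TPM in WT to 38.3 ± 2.40 TPM in KO, a log2 difference of 0.87 ± 0.06 (SE, limma adjusted p = 0.00023). Nrxn3, a presynaptic neurexin that binds C1q-like proteins, fell from 76.4 ± 3.05 to 67.2 ± 1.92 TPM (adjusted p = 0.0209). The adhesion receptor Adgrb1, listed as Bai1, fell from 125 ± 1.88 to 116 ± 0.996 TPM (adjusted p = 0.0226). The receptor Adgrb3, listed as Bai3 and named after its values were seen, fell from 107.9 ± 0.0657 to 100.9 ± 1.65 TPM (adjusted p = 0.0466). With single libraries dropped, Nrxn3 lost its call in 4 of 6 analyses (adjusted p to 0.0706) and Adgrb1 in 5 (to 0.0865). Nrxn3 missed it without WT replicates 2 or 3 or KO replicates 2 or 3, and Adgrb1 without any library but WT replicate 3. Adgrb3 lost its call whichever library was left out, and in 11 of the 17 alternatives in all (adjusted p to 0.146). Nrxn3 and Adgrb1 also lost theirs without the variance trend (0.0687 and 0.0788), and Adgrb1 after median centring (0.0552). C1ql4 did not pass the filter, at 0 to 3 counts per library.

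Of 10 desmosome partners of Dsp, 9 were in the table and 7 were tested, of which Jup rose and none fell. Jup, or plakoglobin, which also serves adherens junctions, went from 40.9 ± 0.982 to 46.7 ± 1.69 TPM (limma adjusted p = 0.0205). It lost the call without WT replicate 2 (0.0650), WT replicate 3 (0.0588) or KO replicate 3 (0.0628), and without the variance trend (0.0544). Of 10 relatives of other members, 8 were tested, 1 rose and 2 fell. Mpped2 rose from 63.3 ± 0.953 to 74.9 ± 2.45 TPM (adjusted p = 0.00367). Man1c1, a second Golgi mannosidase, fell from 17.4 ± 1.35 to 13.2 ± 1.18 TPM (adjusted p = 0.0229), and Spock2 fell from 338 ± 7.67 to 315 ± 1.66 TPM (adjusted p = 0.0345). Man1c1 lost its call in 4 of the 6 analyses with 1 library left out, those without WT replicates 2 or 3 or KO replicates 1 or 3 (adjusted p up to 0.0647). Spock2 lost its call in 5, all but that without WT replicate 3 (up to 0.1185), and after median centring (0.0951). Without the variance trend both missed it (0.0600 and 0.1252).

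Markers of several cell types differed between the groups as well, and their part in the falls of Fibcd1, C1ql3 and Spock1 was not tested. Over all genes tested, 6.74% were called lower and 4.15% higher. Of 7 excitatory neuron markers 5 were lower in KO (Slc17a7, Slc17a6, Tbr1, Camk2a and Neurod2) and none higher, and their summed level went from 1371 to 1400 TPM in WT to 983 to 1032 TPM in KO. Of 11 interneuron markers 9 were lower and 1, Dlx1, higher, with sums of 1310 to 1353 TPM in WT and 972 to 1051 TPM in KO. The 10 members together held 692 to 717 TPM in WT and 643 to 652 TPM in KO. Astrocyte and radial glia markers, of cells that also express Zbtb20, were lower for 2 of 10, Aldh1l1 and Vim, and higher for 2, Slc1a3 and Fabp7 (4380 to 4623 TPM against 4584 to 4768 TPM). Fabp7 lost its call with any library but WT replicate 3 left out (adjusted p to 0.135) and showed no difference after quantile normalization (adjusted p = 1). Slc1a3 lost its call without the variance trend (0.0638). Of 7 meningeal and fibroblast markers 3 were higher, Col1a1, Dcn and Lum, and none lower (181 to 190 TPM against 197 to 211 TPM), and Dcn lost its call with any library but KO replicate 2 left out (adjusted p to 0.111). Of 7 endothelial and pericyte markers 5 were tested, of which Kdr was lower and none higher (18.2 to 19.7 TPM against 16.6 to 17.7 TPM for all 7). Choroid plexus markers, 5 in number, had none called (40.2 to 58.1 TPM against 38.4 to 52.1 TPM). Of 6 Cajal-Retzius markers 4 were tested, of which Reln was higher and none lower (212 to 226 TPM against 235 to 237 TPM for all 6). Lhx1 and Lhx5 did not pass the filter on low values. Of 6 microglial markers 1 was tested and did not pass, and all 6 summed to at most 3.13 TPM in any library. No marker was at 0 in all 6 libraries. The named markers of these lists were chosen after their values were seen.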

How the data were processed

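The authors deposited 1 table of TPM values, 1 column per library. Its name says FPKM, but every column adds up to 1000000. The tools listed in the submitters' processing notes are TopHat, featureCounts, edgeR, Picard 1.127, bcl2fastq 2.17 and FastQC 0.11.2, and the build is mm10. Their roles, the annotation and the strand setting were not stated there. TPM is relative, so a rise of abundant genes lowers all others.

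Each TPM value was a whole count divided by a gene length, times 1 step per library. Counts were recovered for 19369 of 19369 entries above 0 (tolerance 0.001 counts plus 1e-08 of the value). They give the depth and serve 1 alternative test.

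Genes averaging 0.5 TPM or more were compared on log2 of TPM plus 0.5, KO against WT, without covariates (limma 3.58.1, R 4.3.3, variances following a mean trend), with Benjamini-Hochberg adjustment over 14983 genes. Fold changes on this scale understate those of low genes. Percentages of WT are ratios of group means. Named genes were the members, Kdm6b and, per companion list, the 3 with the smallest p that passed. Members and lists were chosen with earlier results of these data known. Of the list symbols, 5 were matched through RefSeq synonyms and 1 was not matched. Alternatives changed the pseudocount, filter, scaling, variance model, block, test and libraries. On simulated data for this comparison over 14962 genes, 42 of 50 genes changed 1.5-fold and 27 of 50 changed 1.2-fold were recovered. At 2-fold and 4-fold, 47 and 50 of 50 were recovered, and 19 of 14762 unchanged genes were falsely called. These 19 were a larger share of all calls in the simulation than 0.05, the threshold on adjusted p. Whether the calls given above hold a like share of false ones was not tested. Simulated spread beyond counting noise was set to the median of abundant genes (overdispersion 0.000159). Changed genes were not drawn from those with the lowest counts. Recovery of such genes, or of genes that vary more, was not tested. Within groups, pairs of libraries differed by more than counting noise (median chi-square 1.26 to 1.98 times its expectation), so all 6 were kept. Results of 1 cell type marker list are not reported here.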

Additional observations from a re-analysis of the deposited data

How the results depend on the processing

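Of the members, C1ql3 and Spock1 kept direction and call in all 17 alternatives, and Fibcd1 in 15. With limma voom on the recovered counts, 1183 genes were higher, with 2 members higher and 6 lower, 8 CA field markers lower and 1 higher, 7 patterning factors higher, 2 desmosome partners higher and 2 relatives higher. Median centring gave 1 member higher, 1 C1q-like gene lower and 1 relative lower. Quantile normalization gave 1 member higher, 3 CA field markers lower and 2 desmosome partners higher. Without the variance trend, 406 genes were higher and 658 lower, with 3 CA field markers, 0 C1q-like genes and 0 relatives lower, and 0 desmosome partners and 2 relatives higher. Leaving out 1 library gave 355 to 454 genes higher and 531 to 698 lower, 2 to 5 members lower, 3 to 5 CA field markers lower, 0 to 1 C1q-like genes lower, 0 to 1 desmosome partners higher and 0 to 1 relatives lower. C1ql2 turned to -0.15 without KO replicate 1, -0.02 without WT replicate 1 and -0.10 without WT replicate 3 (at most 0.23, without KO replicate 2). Fewer samples enter the fits that leave out a library; for the other settings the cause was not tested.

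No pairing by replicate number was seen: deviations of same-numbered libraries from their group means correlated at 0.008, -0.05 and 0.01. This check weighted all tested genes alike and had 3 libraries per group, so it cannot exclude a batch shared by some genes. With the number as a replicate block, 360 genes were higher and 585 lower, with 3 members lower, 3 CA field markers, 0 C1q-like genes and 0 relatives lower, and 0 desmosome partners higher. Dsp and C1ql2 had the lowest counts of the members, at 21 to 72 per library. Their coefficients of variation were above counting error in both groups, in WT at 30.9% against 15.7% for Dsp and 29.8% against 19.2% for C1ql2. Whether depth limits their calls was not tested.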
